A study of Homo sapiens with 19 samples.

Results

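RBFOX2 was described here through every splice junction that lies inside the gene and on its strand, 213 of the 1286533 junctions counted in 19 human cell line libraries. All junctions with both ends inside the annotated gene were taken, whatever their read number and whether annotated or not. The gene (ENSG00000100320.22) spans chr22:35738736-36028425 of GRCh38 on the minus strand, so transcription runs from high to low coordinates. RBFOX2 is a splicing regulator that binds RNA at UGCAUG-type motifs through a single RNA recognition motif domain and works with the LASR group of splicing proteins. It belongs to a family with RBFOX1 and RBFOX3, and an exon it regulates can be included or skipped depending on the side of the exon on which the protein binds. The gene is known for several promoters whose first exons give the protein different N termini, and for alternative exons in its own transcript.

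Ribosomal RNA-depleted libraries were made from A375, a melanoma line (total, nuclear and cytoplasmic RNA, 1 library each), from HEK293, an embryonic kidney line (1 library of total RNA), and from HUES66, a human embryonic stem cell line (1 wild-type library of total RNA). A further 14 HUES66 libraries came from cells treated with 1 µg/ml doxycycline for 24, 48 or 96 hr. They comprised 3 controls, which the labels call wild type (24 hr replicate 2, 48 hr and 96 hr), and 3 libraries of a total knockdown of RBFOX2 (24 hr replicate 1, 48 hr and 96 hr). There were 4 libraries each of the N-short and N-long isoform knockdowns (24 hr replicates 1 and 2, 48 hr and 96 hr), and the plots abbreviate knockdown as KD. The labels give the wild-type HUES66 library neither doxycycline nor a time, but its library name belongs with the knockdowns of 24 hr replicate 1, and whether it is their control is not given in the sources used here. The series title names Cas13d, an RNA-cutting enzyme directed by guide RNAs, as the knockdown tool. The guides, their target sites and whether the cells come from 1 clone are not given in the sources used here, nor is it said whether the libraries come from separate cultures, so p-values measure only the spread between these libraries.

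Library depth was 6499183 to 27937149 junction reads, of which 96.7% to 98.3% were on annotated junctions. The cell lines were checked against marker genes. In every HUES66 library 7 of 8 pluripotency genes reached 1 RPM or more (reads per unit of library total, here of junction reads), and the remaining gene, SOX2, has a single exon and so no junction. A375 had SOX10 at 96.9 to 138 RPM, but the pigment genes MLANA and TYR were at 0 in every library. PMEL went the other way, at 0.286 to 1.48 RPM in A375 and 36.8 to 73.1 in HUES66. The 8 melanocyte genes listed summed to 135 to 207 RPM in A375, 9.67 in HEK293 and 38.8 to 75.9 in HUES66. Of 5 fibroblast or feeder cell genes, COL1A1, COL1A2 and THY1 were present in every HUES66 library (sum of the list 524 to 773 RPM in controls and 515 to 786 in knockdowns) and DCN was at 0; their part in the results was not tested. HEK293 had all 6 of its listed kidney and neural genes at 1 RPM or more (sum 64.0), but A375 had 4 of them (33.8 to 51), so the list sets HEK293 apart from HUES66 (2 of 6) more than from A375. Nuclear RNA markers (of 4, MALAT1 and NEAT1 were detected) summed to 80.4 RPM in A375 nuclear RNA and 4.44 in cytoplasmic RNA. The 4 cytoplasmic RNA markers (GAPDH, ACTB, EEF1A1 and RPLP0) summed to 12900 RPM in nuclear RNA, 28200 in cytoplasmic RNA and 17900 in total RNA. They were thus lower in the nuclear fraction but far from absent.

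The coding start of RBFOX2 differs by first exon. These joins are shown because first-exon use differed between the N-long and N-short knockdowns. The distal first exon (186 nt, chr22:36028240-36028425) is spliced to a 51-nt exon (chr22:35938847-35938897), which is spliced to a 225-nt exon shared by all the long transcripts (chr22:35809780-35810004). In transcript RBFOX2-209 this route puts 237 coding nt before the shared exon. The proximal first exon (donor end at 35840192, several annotated starts) is spliced straight to the shared exon, with 27 coding nt before it in RBFOX2-205 and RBFOX2-207. The sequences below are from the GENCODE 29 transcripts, 5′ to 3′, with capitals marking the downstream exon.
distal first exon joined to the 51-nt exon: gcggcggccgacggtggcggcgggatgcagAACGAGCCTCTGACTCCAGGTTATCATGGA
51-nt exon joined to the 225-nt exon: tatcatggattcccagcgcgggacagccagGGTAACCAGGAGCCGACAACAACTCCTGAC
proximal first exon joined to the 225-nt exon: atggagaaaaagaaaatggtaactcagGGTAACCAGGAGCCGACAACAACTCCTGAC

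Further along the transcript, 3 acceptors come as close pairs, shown here because their forms differ by a few bases. The 144/147-nt exon and the 133/145-nt exon are shown at the join to the exon before them, with the extra bases of the longer form in capitals. The 54-nt exon is shown whole, with the 3 bases that its shorter form lacks in capitals.
225-nt exon joined to the 147-nt form: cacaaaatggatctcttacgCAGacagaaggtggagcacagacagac
225-nt exon joined to the 144-nt form: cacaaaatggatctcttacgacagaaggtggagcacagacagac
second 93-nt exon joined to the 145-nt form: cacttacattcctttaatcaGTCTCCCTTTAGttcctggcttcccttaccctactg
second 93-nt exon joined to the 133-nt form: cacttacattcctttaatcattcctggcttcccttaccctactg
54-nt exon: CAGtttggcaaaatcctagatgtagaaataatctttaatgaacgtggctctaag
Each of the 3 extra segments ends in AG, the bases at which an intron usually ends. The segments of 3 and 12 bases keep the reading frame.

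Of the 213 junctions, 25 are among the 27 that GENCODE 29 annotates and 188 are not annotated. Annotated junctions held 24004 of the 24533 reads. The unannotated junctions held 529 reads, and 129 of them had 1 read in all libraries together. Of the unannotated junctions, 9 joined annotated sites in another pairing, 57 used 1 annotated site and 122 used none. Junctions found in all 19 libraries numbered 17, and 141 were found in 1 library.

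The level of RBFOX2, as its annotated junction reads in RPM of all gene-assigned junction reads, was highest in HUES66 and lowest in A375 nuclear RNA among the libraries labelled without doxycycline. A375 total RNA had 83.4 RPM (95% Poisson interval 77.2 to 90.0), nuclear RNA 64.0 (57.8 to 70.6) and cytoplasmic RNA 96.8 (92.6 to 101.1). HEK293 had 104.7 (98.2 to 111.7) and wild-type HUES66 126.7 (122.4 to 131.1). These intervals cover counting error only. In that order, from nuclear A375 to HUES66, cytoplasmic A375 and HEK293 are neighbours whose intervals overlap, and the intervals of the other neighbours do not. Each of these lines has 1 library, so no test between lines was possible.

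In the doxycycline-treated HUES66 libraries the controls stood at 132.9, 129.4 and 125.8 RPM (24, 48 and 96 hr), beside 126.7 in wild-type HUES66. The total knockdown libraries had 51.1, 83.3 and 80.3 and the N-long knockdown libraries 78.0 and 76.7 at 24 hr, 92.7 at 48 hr and 85.0 at 96 hr. The N-short knockdown libraries had 115.3 and 122.9 at 24 hr, 127.6 at 48 hr and 113.2 at 96 hr. Every total knockdown and N-long knockdown library was thus below every control, whereas N-short knockdown overlapped the controls. In the edgeR quasi-likelihood fit over 13393 genes, RBFOX2 had a log2 fold change of -0.82 in the total knockdown against control (3 against 3 libraries, SE 0.08, adjusted p = 8.613e-09), and 2.28% of all genes were called there. Total knockdown and control shared only the 48 and 96 hr library sets in this fit. In N-long knockdown RBFOX2 was lower, at -0.57 (SE 0.07, adjusted p = 2.733e-05), where 0.0224% of genes were called. N-short knockdown was at -0.06 (SE 0.07, adjusted p = 0.9988), with 0.00747% of genes called. All contrasts with control share the same 3 control libraries. RBFOX2 was also lower in N-long knockdown than in N-short knockdown, with a difference of -0.52 (SE 0.06, adjusted p = 3.625e-05, edgeR, 0.0149% of genes called). Total knockdown minus N-long knockdown was -0.24 and did not pass the threshold (SE 0.07, adjusted p = 0.08904, edgeR, 2.08% of genes called). Both N-long knockdown calls were lost with DESeq2 (adjusted p = 0.0683 and 0.0665) and with time point in place of library set (0.461 and 1.0), at nearly the same fold changes.

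**Figure D1:**
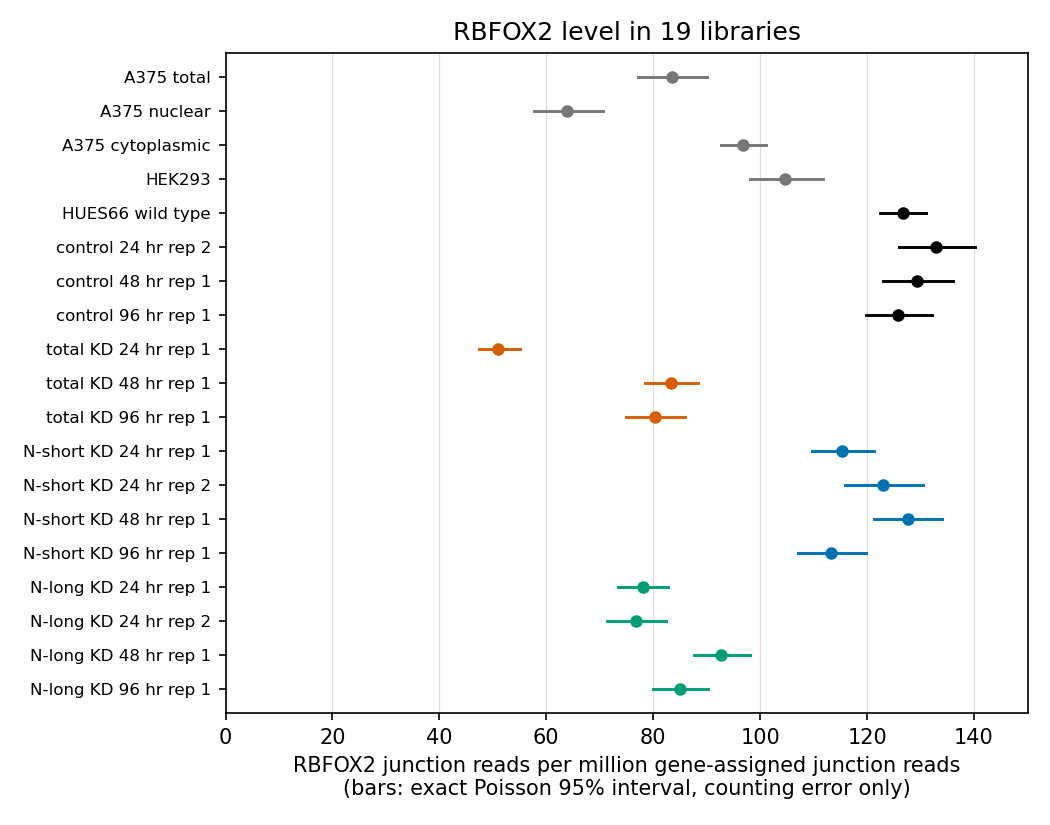
RBFOX2 junction reads in RPM of all gene-assigned junction reads in each of the 19 libraries (points), with exact Poisson 95% intervals that cover counting error only. The controls and wild-type HUES66 lie at 125.8 to 132.9, and the total knockdown and N-long knockdown libraries at 51.1 to 92.7.

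HEK293 drew more on the proximal first exon than the other lines, from 1 library each. The 1478 reads entering the 225-nt exon came mainly from 3 upstream partners: the 51-nt exon (936 reads in all libraries), the proximal first exon (409) and a 120-nt exon at chr22:35836320-35836439 (112). The remaining 21 came from other donors. The share that came from the proximal first exon was 26.7% in A375 total RNA (12 of 45 reads, Wilson 95% interval 16.0% to 41.04%), 46.8% in HEK293 (29 of 62, 34.9% to 59.0%) and 25.6% in wild-type HUES66 (63 of 246, 20.6% to 31.4%). HEK293 exceeded wild-type HUES66 by 21.2 percentage points (Newcombe 95% interval 7.96 to 34.4) and A375 total RNA by 20.1 points (1.47 to 36.4). A375 total RNA and HUES66 differed by 1.06 points, with an interval of -11.1 to 16.3. The share of the 51-nt exon ran the other way, at 66.7% in A375 total RNA, 50% in HEK293 and 65.4% in wild-type HUES66. With 1 library per line, these intervals say nothing of variation between cultures.

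In A375 the proximal first exon was scarce in nuclear RNA. It gave 2 of 34 reads into the 225-nt exon there (5.88%, 1.63% to 19.1%) and 33 of 115 in cytoplasmic RNA (28.7%, 21.2% to 37.5%), a difference of 22.8 points (7.64 to 32.6). The share of the 51-nt exon was 88.2% in nuclear and 63.5% in cytoplasmic RNA. Scaled to library size, RBFOX2 as a whole was 1.51 times as high in cytoplasmic as in nuclear RNA (exact 95% interval 1.36 to 1.69). The junction from the proximal first exon stood at 4.78 times (1.22 to 41.1, from 2 nuclear reads) and that from the 51-nt exon at 0.705 times (0.455 to 1.12). Both fractions are single libraries.

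The 2 isoform knockdowns moved first-exon use apart. Controls drew 29.6%, 25.7% and 30.8% of reads into the 225-nt exon from the proximal first exon (24, 48 and 96 hr; mean 28.7% ± 2.63, SD, n = 3). N-short knockdown drew 6.32% and 13.9% at 24 hr, 18.3% at 48 hr and 7.14% at 96 hr (mean 11.4% ± 5.70, SD, n = 4). N-long knockdown drew 61.6% and 44.4% at 24 hr, 40.4% at 48 hr and 54.7% at 96 hr (mean 50.3% ± 9.65, SD, n = 4). Neither knockdown overlapped the controls, and they lay on opposite sides of them. Total knockdown drew 19.4%, 23.2% and 30.4% (mean 24.3% ± 5.59, SD, n = 3), which overlaps the controls. By share of reads leaving annotated first exons, the proximal exon was at 31.9% to 60.7% in N-long knockdown and 24.6% to 30.5% in controls. N-short knockdown was at 7.06% to 18.0% and total knockdown at 21.4% to 32.7%. By that measure the lowest N-long knockdown library lay close to the highest control.

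The 51-nt exon showed the mirror image. Its share was 62.0%, 68.3% and 58.2% in controls, 82.1%, 79.2%, 77.9% and 82.9% in N-short knockdown, and 24.7%, 44.4%, 51.1% and 28.1% in N-long knockdown, in the same order of times. Total knockdown had 64.5%, 75.0% and 51.8%. The 120-nt exon gave 3.96% to 10.99% of the reads in controls and 1.79% to 17.2% in the knockdowns, so its range overlapped in all groups.

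**Figure D2:**
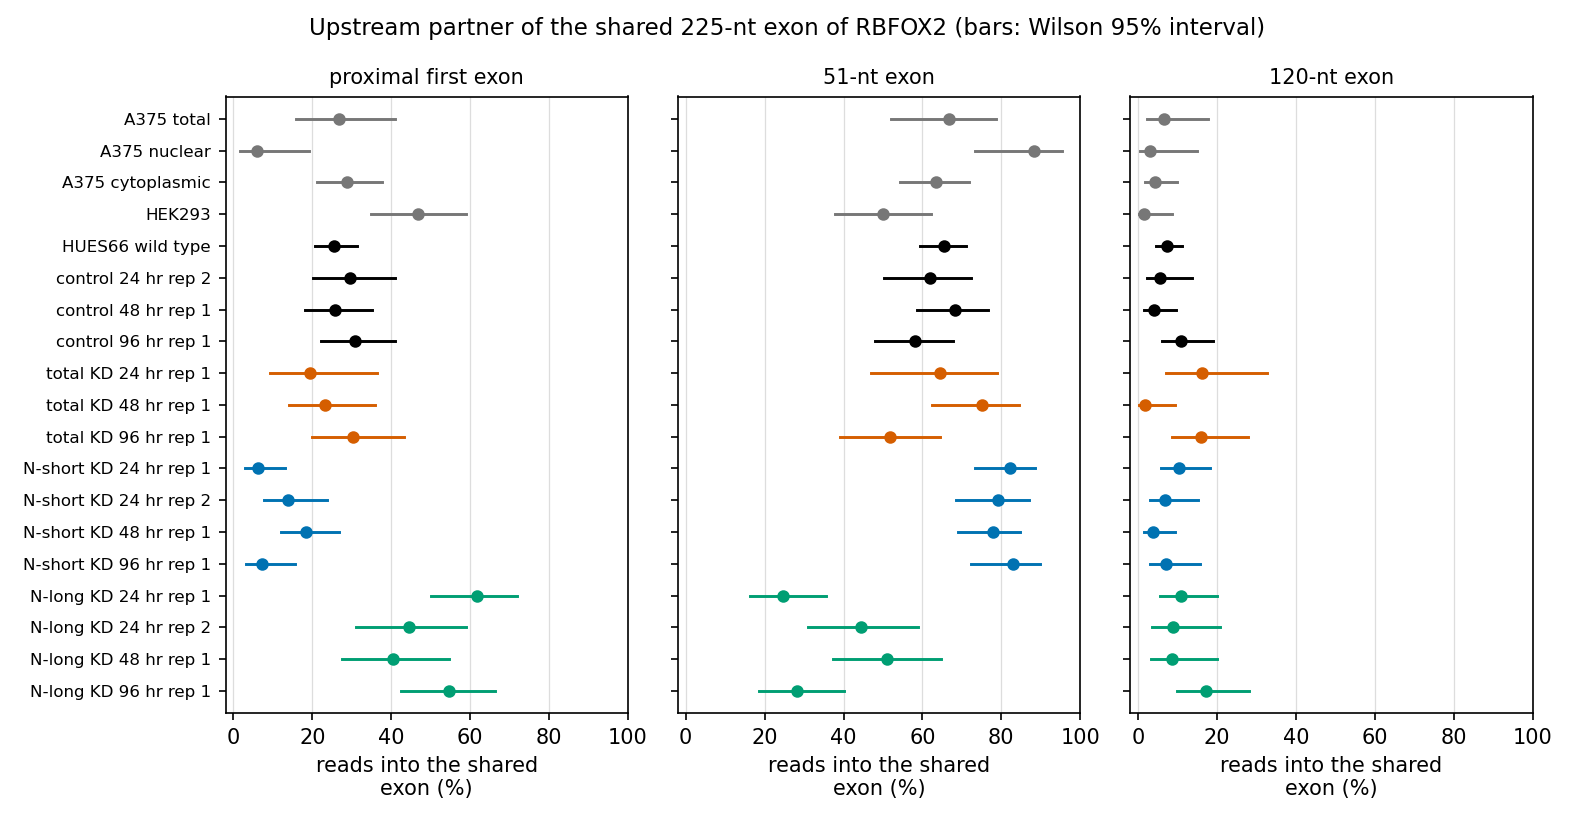
Share of reads into the 225-nt exon of RBFOX2 that came from the proximal first exon, the 51-nt exon and the 120-nt exon in each of the 19 libraries (percent, points, with Wilson 95% intervals for counting error). The 4 N-short knockdown libraries lie at 6.32% to 18.3% from the proximal first exon, the 4 N-long knockdown libraries at 40.4% to 61.6%, and the controls at 25.7% to 30.8%.

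Usage was tested as reads of a junction against reads of the other junctions at the same splice site, over 66546 usages of all genes with edgeR, as a log2 odds difference. In simulated data this fit recovered 40% of 200 usages given a log2 odds change of 2 in total knockdown. A usage that was not called can therefore still have changed. Of RBFOX2, 17 usages could be tested. Comparing N-long knockdown with N-short knockdown, 2 of them were called, where 0.328% of all usages were called: at the acceptor of the 225-nt exon, the 51-nt exon was used less in N-long knockdown (-2.85, SE 0.35, adjusted p = 2.378e-11) and the proximal first exon more (2.99, SE 0.37, adjusted p = 7.202e-11). Against control, N-long knockdown had 1 call, where 0.34% were called: lower use of the 51-nt exon (-1.53, SE 0.37, adjusted p = 0.01452). The proximal first exon was at 1.41 in that comparison (SE 0.37, adjusted p = 0.05872). N-short knockdown had 0 calls against control with edgeR (0.182% of all usages called), with 2 at an unadjusted p under 0.05. Its values were -1.57 for the proximal first exon (SE 0.40, adjusted p = 0.0636) and 1.32 for the 51-nt exon (SE 0.36, adjusted p = 0.153).

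Total knockdown had 0 usage calls against control (0.524% called) and 1 at an unadjusted p under 0.05. Against N-long knockdown it used the 51-nt exon more (1.67, SE 0.41, adjusted p = 0.02093) and the proximal first exon less (-1.67, SE 0.42, adjusted p = 0.03261), where 0.325% of usages were called with edgeR. These calls were lost in 4 and 5 of 14 fits that left out 1 library (adjusted p up to 0.456 and 0.732). Both were lost without total knockdown at 24 or 48 hr and without N-long knockdown 24 hr replicate 1 or 96 hr, and the proximal first exon also without total knockdown at 96 hr. The N-long knockdown call against control was lost in 4 of 14 fits that left out 1 library, with adjusted p up to 0.211 (N-long knockdown 24 hr replicate 1 and 96 hr, control 48 and 96 hr). The 2 calls that separate N-long knockdown from N-short knockdown held in all 14 such fits. They share 1 acceptor and set largely the same reads against each other, so they are not independent results. The same holds for the 2 calls between total knockdown and N-long knockdown.

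Junction by junction, 16 of the 213 members passed the filter on low counts among 124121 junctions tested with edgeR. The junction from the 51-nt exon to the 225-nt exon (chr22:35810005-35938846) had 44, 69 and 53 reads in controls, 18, 20, 24 and 18 in N-long knockdown and 78, 57, 81 and 58 in N-short knockdown. Against control it fell in N-long knockdown, with -1.49 on the log2 scale (SE 0.20, adjusted p = 1.585e-05). The difference between both isoform knockdowns was -1.87 (SE 0.17, adjusted p = 2.063e-09, lower in N-long knockdown), and both calls held in each of the 14 fits that left out 1 library. The junction from the proximal first exon (chr22:35810005-35840191) had 21, 26 and 28 reads in controls, 45, 20, 19 and 35 in N-long knockdown and 6, 10, 19 and 5 in N-short knockdown. Against control this junction stood at 0.17 in N-long knockdown (adjusted p = 1.0) and at -1.28 in N-short knockdown (SE 0.35, adjusted p = 0.7269) on the log2 scale. N-long knockdown minus N-short knockdown was 1.45 (SE 0.31, adjusted p = 0.05979). The higher share of the proximal first exon in N-long knockdown thus stood beside fewer reads from the 51-nt exon, with no called change of its own reads.

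Members called in N-long knockdown against control numbered 5, all lower, where 0.0661% of junctions were called in either direction and 0.0379% as lower. Beside the 51-nt exon junction they were 4 consecutive junctions of the body of the gene, from the 144/147-nt exon to the second 54-nt exon, at -0.62 to -0.69. Junctions of the same gene are not independent results. When 1 library was left out, 3 of these 4 calls were lost in 3 to 4 of 14 fits (adjusted p up to 0.129), each time including control 24 hr replicate 2 and N-long knockdown 24 hr replicate 2, and the count of called members ran from 2 to 7. N-short knockdown had 0 members called with edgeR and 0 with DESeq2, and 2 at an unadjusted p under 0.05, where 0.0306% of junctions were called. N-long knockdown differed from N-short knockdown at 5 members, all lower in N-long knockdown, where 0.0548% of junctions were called and 0.0363% as lower. That count ran from 1 to 7 over the fits without 1 library, with the low end without N-short knockdown 24 hr replicate 1. With DESeq2 1 member was called in N-long knockdown against control and 2 against N-short knockdown.

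The junction from the distal first exon into the 51-nt exon was not called in N-long knockdown. It (chr22:35938898-36028239) had 19, 16 and 19 reads in controls, 19, 16, 25 and 6 in N-long knockdown and 27, 15, 21 and 19 in N-short knockdown. These read numbers are not scaled to library depth, so they do not rank the libraries. Total knockdown had 5, 12 and 6 reads, or -1.35 on the log2 scale against control (SE 0.39, adjusted p = 0.1775, edgeR). Its log2 fold change in N-long knockdown was -0.25 (SE 0.31, adjusted p = 1.0, edgeR). Reads into the 51-nt exon per read out of it were 0.331 in the controls together (55 to 166 reads, exact 95% interval 0.240 to 0.452) and 0.317 in wild-type HUES66. The ratio was 0.900 in N-long knockdown (0.645 to 1.25), beside 0.318 in N-short knockdown and 0.286 in total knockdown. By library, N-long knockdown had 1.28 and 0.850 at 24 hr, 1.04 at 48 hr and 0.389 at 96 hr, of which the last lies within the range of the controls. An annotated transcript starts at the 51-nt exon, and its part in these ratios was not tested.

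**Figure D3:**
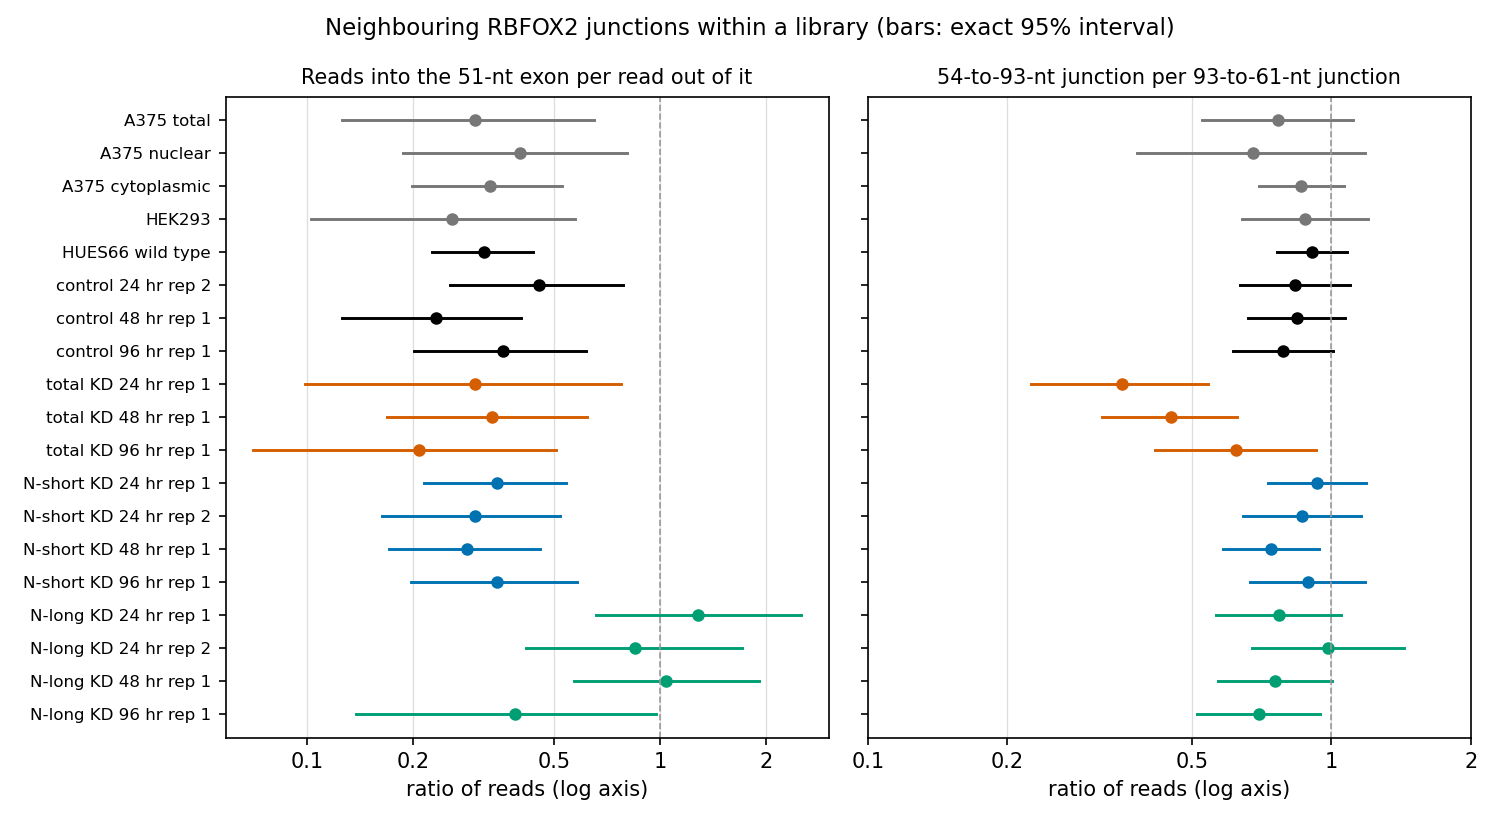
Ratios of reads on neighbouring RBFOX2 junctions within each of the 19 libraries (log axis, exact 95% intervals for counting error): reads into the 51-nt exon per read out of it on the left, and the 54-nt to 93-nt junction per read of the 93-nt to 61-nt junction on the right. On the left 3 N-long knockdown libraries lie at 0.850 to 1.28, and on the right the 3 total knockdown libraries lie at 0.353 to 0.623, below the controls.

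Total knockdown was below control at every tested RBFOX2 junction, and among the called ones most at those of the 54-nt exon, whose sequence is given above. Of the 16 tested members 8 fell and 0 rose, where 0.364% of junctions were called (0.132% as lower), and all 16 fold changes were below 0, with a median of -0.73 (over all 124121 junctions 49.9% were below 0 and the median was 0.0). The 16 junctions belong to the same gene, whose summed reads also fell, so they are not independent results. The lowest of those called were the 2 junctions that flank the 54-nt exon (chr22:35778025-35778078). Reads from the 144/147-nt exon into it changed by -1.31 (SE 0.14, adjusted p = 1.301e-08), and reads from it to the 93-nt exon by -1.55 (SE 0.16, adjusted p = 1.167e-08). The latter had 101, 128 and 119 reads in controls and 30, 54 and 43 in total knockdown. The next junction, from the 93-nt to the 61-nt exon, had 121, 152 and 151 reads in controls and 85, 120 and 69 in total knockdown, or -0.76 on the log2 scale (SE 0.13, adjusted p = 0.0002837). The junction into the last exon was at -0.69 (SE 0.15, adjusted p = 0.02115). That call was lost in 4 of 14 fits that left out 1 library (adjusted p up to 0.194, edgeR): total knockdown at 24 and 48 hr, control 24 hr replicate 2 and control 96 hr. The calls at both junctions of the 54-nt exon held in all 14.

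Within a library, reads of the 54-nt to 93-nt junction per read of the next junction were 0.821 in the controls together (0.710 to 0.948) and 0.463 in total knockdown (0.373 to 0.574), with 0.848 for N-short knockdown and 0.778 for N-long knockdown. The 3 total knockdown libraries had 0.353, 0.450 and 0.623, below all controls. Directly against N-long knockdown, total knockdown was lower at both junctions of the 54-nt exon (-0.69, adjusted p = 0.004379, and -0.86, adjusted p = 0.001893), where 0.314% of junctions were called with edgeR (0.0798% as lower). Both calls were lost without total knockdown at 24 hr, where the values were -0.433 (adjusted p = 0.251) and -0.618 (adjusted p = 0.143), and the former also without N-long knockdown at 48 hr. Each junction was also compared with the other junctions of its gene by edgeR, over 116020 junctions. There the 54-nt to 93-nt junction was at -0.74 in total knockdown and did not pass the threshold (edgeR adjusted p = 0.1329). In this comparison 2 members differed in N-long knockdown against N-short knockdown, where 0.019% of junctions were called. They were the 51-nt exon junction (-1.35, adjusted p = 1.657e-05) and the proximal first exon junction (1.97, adjusted p = 1.08e-05). It called 0 members in each of the other contrasts, with 2 to 6 at an unadjusted p under 0.05. Of all junctions it called 0.0603% in total knockdown, 0.00517% in N-short knockdown and 0.025% in N-long knockdown against control, and 0.0155% in total knockdown against N-long knockdown. This comparison was chosen after the data had been seen. The call on the proximal first exon was lost without N-long knockdown 24 hr replicate 1 (adjusted p = 0.059).

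**Figure D4:**
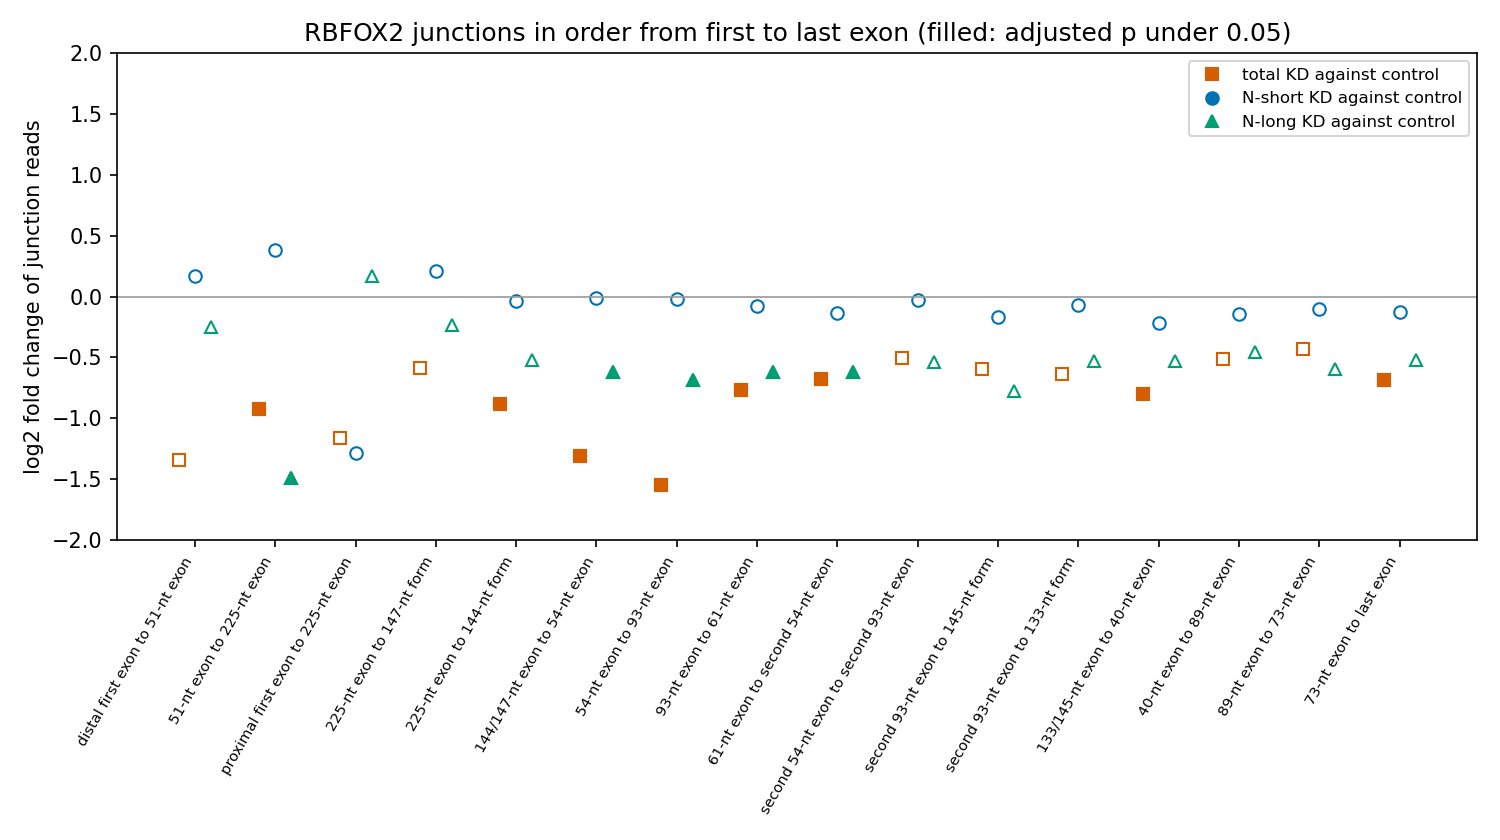
Log2 fold changes against control of the 16 tested RBFOX2 junctions in order from the first to the last exon, for each of the 3 knockdowns (edgeR; filled symbols have an adjusted p under 0.05). Among the called junctions, total knockdown is lowest at the 54-nt exon, at -1.31 and -1.55, while the distal first exon junction at -1.35 is not called, and N-long knockdown at the junction from the 51-nt to the 225-nt exon, at -1.49.

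No difference between knockdowns and controls was called at the tandem acceptors. The usage fit recovered 40% of simulated log2 odds changes of 2 over usages of all genes and depths tested, not at these sites in particular. The 147-nt form, with 3 more bases, took 34.9% of 2971 reads from the 225-nt exon. Its share was 33.8% in A375 total RNA, 39.0% in nuclear and 29.6% in cytoplasmic RNA, 29.2% in HEK293 and 32.4% in wild-type HUES66. Controls had 33.9%, 37.0% and 29.9% (mean 33.6% ± 3.55, SD, n = 3), total knockdown 37.7% ± 2.92 (SD, n = 3), N-short knockdown 36.3% ± 4.23 (SD, n = 4) and N-long knockdown 37.2% ± 5.22 (SD, n = 4). These ranges overlap, and the log2 odds differences from control were 0.29 (total), 0.23 (N-short) and 0.27 (N-long) (SE 0.22 to 0.27, adjusted p = 1.0 in each, edgeR).

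The 145-nt form of the 133/145-nt exon, with 12 more bases, took 33.1% of 2047 reads. It was at 36.4%, 30.2% and 40% in A375 total, nuclear and cytoplasmic RNA, 42.1% in HEK293 and 29.7% in wild-type HUES66. HEK293 was above wild-type HUES66 by 12.5 points, with a Newcombe interval of 0.638 to 24.7 points. The doxycycline-treated HUES66 controls reached 36.3% and the treated libraries together 40.3%, both nearer to HEK293. Controls had 32.7% ± 3.52 (SD, n = 3), total knockdown 35.2% ± 4.95 (SD, n = 3), N-short knockdown 32.6% ± 5.08 (SD, n = 4) and N-long knockdown 31.1% ± 6.73 (SD, n = 4), and none of the differences from control was called (adjusted p = 1.0, edgeR).

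The shorter 51-nt form of the 54-nt exon, which uses the later of its acceptors, was rare, at 2.73% of 2966 reads. It ranged from 0 of 44 reads in A375 nuclear RNA (Wilson upper bound 8.03%) to 6 of 52 (11.5%, Wilson interval 5.397% to 23.0%) in total knockdown at 24 hr. The other total knockdown libraries had 2.73% and 3.61%, the controls 2.33% to 2.97% and N-short knockdown 2.14% to 2.61%. All 4 N-long knockdown libraries, at 3.09% to 6.02% on 3 to 8 reads each, lay above the controls, and the difference was not called (log2 odds 0.53, SE 0.56, adjusted p = 1.0, edgeR). The 54-nt exon itself was skipped in 2 reads of all libraries and included at 99.9%.

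**Figure D5:**
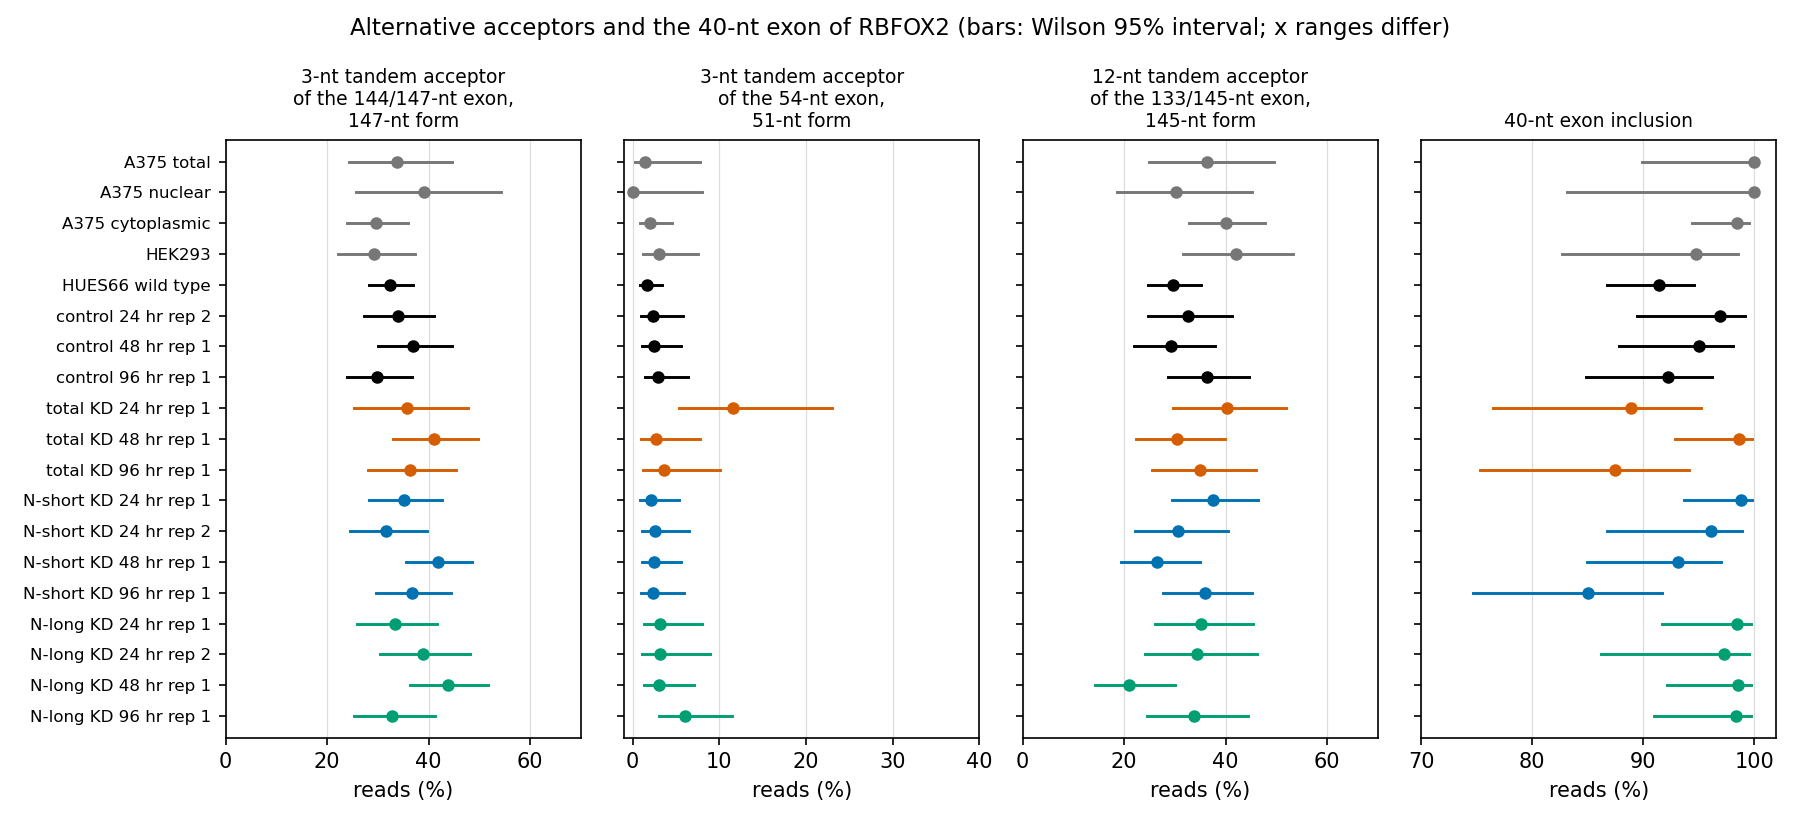
Shares of the longer or shorter form at the 3 tandem acceptors of RBFOX2 and inclusion of the 40-nt exon in each of the 19 libraries (percent, points, with Wilson 95% intervals for counting error; the horizontal ranges differ between panels). The 147-nt form lies between 29.2% and 43.9% in all libraries, and the 4 N-long knockdown libraries include the 40-nt exon at 97.3% to 98.5%.

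Of the internal exons that can be skipped, the 40-nt exon (chr22:35756105-35756144) varied most. It was included at 94.9% over all libraries, counted as the mean of its flanking junctions against the junction that skips it, with the mean rounded up to a whole read in each library. Its sequence is shown because its length is no multiple of 3, so that skipping shifts the reading frame.
40-nt exon: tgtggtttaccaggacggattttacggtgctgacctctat
In A375 total and nuclear RNA 0 reads skipped it (34 and 19 inclusion reads), and inclusion was 98.4% in cytoplasmic RNA, 94.7% in HEK293 and 91.5% in wild-type HUES66. A375 total RNA and HUES66 differed by 8.54 points with a Newcombe interval of -2.08 to 13.2. Controls had 96.9%, 95% and 92.2%, total knockdown 88.9%, 98.7% and 87.5%, N-short knockdown 98.8%, 96.1%, 93.2% and 85.1%, and N-long knockdown 98.4%, 97.3%, 98.5% and 98.3%. The N-long knockdown libraries were all above the controls, with 1 skipping read each. The difference was not called: the log2 odds of skipping at the donor were -1.32 against control (SE 0.84) and -1.81 against N-short knockdown (SE 0.78), each with adjusted p = 1.0 in edgeR. At the 89-nt acceptor, log2 odds of the junction from the 40-nt exon were 1.86 against control (SE 0.84, adjusted p = 0.993, edgeR). Against N-short knockdown they were 2.355 (SE 0.75, adjusted p = 0.354, edgeR), also not called.

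The 93-nt exon after the 54-nt exon (chr22:35768257-35768349) was included at 99.2%, and 5 of its 17 skipping reads were in HEK293, where inclusion was 94.5% (Wilson interval 87.8% to 97.6%). HEK293 minus wild-type HUES66 was -4.37 points (Newcombe interval -11.1 to -0.591). A 43-nt exon and a 32-nt exon between the 40-nt and 89-nt exons are annotated in single transcripts and had few reads: 13 and 6 on the junctions into and out of the 43-nt exon, and 2 on each side of the 32-nt exon.

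Of the 188 unannotated junctions 5 had 20 or more reads. The most used, with 53 reads, ran from the proximal first exon to an unannotated acceptor (chr22:35838685-35840191) and took 11.3% of the reads that left this exon. It took 3 of 15 reads in A375 total RNA, 9 of 44 in cytoplasmic RNA, 3 of 33 in HEK293 and 5 of 70 in wild-type HUES66, and 0% to 40% in the treated libraries, on 6 to 49 reads each. No more than 5 member junctions had a donor between this acceptor and the 225-nt exon, and 2 of these used the donor of the 120-nt exon. The 120-nt exon had 112 reads out of it and 2 into it. Whether reads leaving the donor of the 120-nt exon continue from the unannotated acceptor cannot be read from single junctions.

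The other 4 were at chr22:35909722-35927526 with 24 reads, chr22:35768350-35776323 with 23, chr22:36008571-36009688 with 22 and chr22:35881005-35886160 with 21. The junction with 23 reads joins the 93-nt exon to an unannotated 143-nt exon that lies in the intron after the 54-nt exon. Inclusion of that exon over all libraries was 0.773% by the junction into it (14 of 1812 reads) and 1.26% by the junction out of it (23 of 1821). In total knockdown at 24 hr these were 0 of 30 and 6 of 36 reads (16.7%, 7.87% to 31.9%), so the junctions on its sides differ there, and the controls had 0% to 1.54% on either side. Unannotated junctions together took 2.08% of RBFOX2 reads in A375 total RNA, 3.24% in nuclear RNA, 1.51% in cytoplasmic RNA, 4.17% in HEK293 and 1.67% in wild-type HUES66. Counting only junctions with at least 2 reads in the library, HEK293 had 1.63% and the other libraries labelled without doxycycline 1.04% to 2.24%. Controls had 1.50% ± 0.161 (SD, n = 3), total knockdown 3.23% ± 0.872 (SD, n = 3), N-short knockdown 1.91% ± 0.661 (SD, n = 4) and N-long knockdown 2.74% ± 0.734 (SD, n = 4).

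The authors' deposited tables hold 14 kinds of RBFOX2 event in 9 comparisons of knockdown with control, 100 rows in all. Of these rows in the authors' deposited tables, 0 had an adjusted p under 0.05 and 5 had an unadjusted p under it. The smallest adjusted p in the authors' deposited tables was 0.1058 (p = 6.301e-05), for a mutually exclusive event of the 93-nt exon in total knockdown at 24 hr. Its inclusion difference, control minus knockdown, was 0.254 there, 0.098 at 48 hr and -0.006 at 96 hr. The other rows with an unadjusted p under 0.05 were of the 40-nt exon (N-long knockdown at 24 and 96 hr, N-short knockdown at 24 hr) and the 225-nt exon (N-long knockdown at 48 hr). In the authors' deposited tables the acceptor pair of the 144/147-nt exon differed, control minus knockdown, by -0.058 to -0.004 in inclusion on a scale of 0 to 1, and that of the 133/145-nt exon by -0.064 to 0.095.

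The partners of RBFOX2 were read from a list of 8 genes. RBFOX3 stood at 16.5 to 24.9 RPM in HUES66 and at no more than 1.902 in A375 and 0.111 in HEK293, and RBFOX1 at 0.548 to 2.21 in HUES66 and 0 to 2 reads in the other lines. Of the list (RBFOX1, RBFOX3 and the LASR proteins DDX5, HNRNPC, HNRNPH1, HNRNPM, ILF2 and MATR3), 0 of 8 genes were called in any of the 5 contrasts with edgeR. In total knockdown their log2 fold changes ran from -0.10 for DDX5, an RNA helicase (adjusted p = 0.1075), to 0.26 for RBFOX1 (adjusted p = 0.8561). RBFOX3 was at 0.12 in total knockdown (SE 0.11, adjusted p = 0.7033) and at 0.12 in N-long knockdown (SE 0.10, adjusted p = 0.9997).

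Among 13392 other genes, those whose level followed RBFOX2 most closely over the 14 treated libraries, with the mean of each library set subtracted, were TLE4 (Pearson r 0.94), MTCH2 (0.91), NOTCH2 (0.91), VPS13B (0.90) and LAMB1 (0.89). These libraries share their controls, sets and knockdowns, and the values are a description.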

How the data were processed

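The deposited junction files give raw counts, 1 table per library, of reads that cross each splice junction. Per the submitters' processing notes the tools were STAR 2.7.1 and SAMtools 1.9 with the build hg38; the counting filters are not given in the sources used here. In the authors' 9 deposited rMATS comparison tables the inclusion difference is a unit of another kind than counts, on a scale of -1 to 1, and these tables also hold the p-values of the authors, per the file headers. Their 69 per-library columns were not used.

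Junctions were matched to GENCODE 29 by coordinates and strand. Members are all junctions with both ends inside RBFOX2 on its strand. Named with values were junctions from annotated first exons, skipped exons, tandem sites at most 30 nt apart and unannotated junctions, each with at least 20 reads over 19 libraries for the minor choice, and the 5 genes with the highest r to RBFOX2. Junctions flanking these choices were named to give them context. The members and lists were chosen with earlier results of these data known. One item of the partner list is not reported here.

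Gene sums, junctions and usages (a junction against the others at its donor or acceptor, mean of at least 20 reads, pooled use of 2% to 98%) were fitted across all genes in the 14 treated libraries by edgeR's quasi-likelihood test (version 4.0.16, under R 4.3.3; TMM factors, low counts removed by filterByExpr), with terms for knockdown and for 4 library sets (time point and, at 24 hr, replicate). The labels place the replicates at 24 hr in different library series, so the sets pair libraries. Total knockdown and control share the 48 and 96 hr sets only. P-values were adjusted by Benjamini-Hochberg, threshold 0.05. Alternatives were DESeq2 1.42.0, limma 3.58.1 (0.5 reads added), other filters, time point alone, wild-type HUES66 as control of 24 hr replicate 1, and leaving out each library. The junction against the rest of its gene (diffSpliceDGE) was added after the data were seen. Per-set values have 1 library per group and so no test of their own. The scripts were tested on simulated data. Correlations used log2(CPM + 0.5).

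Shares carry 95% Wilson intervals, differences Newcombe, counts exact Poisson and ratios exact intervals, in Python 3.11.15 with scipy 1.17.1; all cover counting error only, and reads without molecular identifiers are not independent molecules. Junction reads do not locate transcription starts, and fewer reads on a junction can come from fewer transcripts or fewer reads per transcript.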

Additional observations from a re-analysis of the deposited data

Results flagged for a closer look

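In 3 of 30 groups of 4 libraries, 1 library stood apart from the others by Dixon's criterion. Its nominal chance rate of about 1 of 20 groups is for normally distributed values and need not hold for shares of few reads. The 3 of 30 were therefore not compared with that rate. The 51-nt form of the 54-nt exon took 6.02% of reads in N-long knockdown at 96 hr, against 3.09% to 3.20% in the other 3 N-long knockdown libraries, from 8 of 133 reads. The 145-nt form of the 133/145-nt exon took 21.0% in N-long knockdown at 48 hr, against 33.7% to 35.2% in the other 3. Inclusion of the 93-nt exon after the 54-nt exon was 98.9% in N-long knockdown at 24 hr replicate 1, from 1 skipping read, against 100% in the other 3. With the other 3 equal, any differing value meets the criterion.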

How the results depend on the processing

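Leaving out 1 library at a time changed no direction in total knockdown, N-long knockdown and N-long knockdown against N-short knockdown at the gene level. Log2 fold changes were -0.928 to -0.675 (total knockdown), -0.11 to 0.002 (N-short knockdown), -0.628 to -0.511 (N-long knockdown), -0.57 to -0.44 (N-long knockdown against N-short knockdown) and -0.343 to -0.062 (total knockdown against N-long knockdown, called only without total knockdown 96 hr). DESeq2 gave -0.576 (adjusted p = 0.0683) in N-long knockdown and -0.522 (adjusted p = 0.0665) in N-long knockdown against N-short knockdown. With time point alone and no replicate block these were -0.614 (adjusted p = 0.461) and -0.522 (adjusted p = 1.0). Total knockdown against N-long knockdown was -0.246 with no filter (adjusted p = 0.000526), beside -0.24 (adjusted p = 0.08904) with it.

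RBFOX2 junctions called without 1 library numbered 5 to 8 in total knockdown, 0 in N-short knockdown, 2 to 7 in N-long knockdown, 1 to 7 in N-long knockdown against N-short knockdown and 0 to 3 in total knockdown against N-long knockdown. DESeq2 called 5 in total knockdown, 1 in N-long knockdown and 2 in N-long knockdown against N-short knockdown. Without the filter 1 was called in N-short knockdown, 9 in N-long knockdown and 8 in N-long knockdown against N-short knockdown. With no replicate block 2 were called in N-long knockdown, 1 in N-long knockdown against N-short knockdown and 1 in total knockdown against N-long knockdown. With wild-type HUES66 as a control 10 were called in N-long knockdown. Against the rest of the gene 0 to 1 were called in N-long knockdown, 1 to 2 in N-long knockdown against N-short knockdown and 0 in the other 3 contrasts when 1 library was left out.

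Usages called without 1 library numbered 0 to 1 in total knockdown, 0 to 2 in N-short knockdown, 0 to 2 in N-long knockdown, 2 in N-long knockdown against N-short knockdown and 0 to 2 in total knockdown against N-long knockdown. At 10 reads per site 1 was called in N-short knockdown, and with wild-type HUES66 as a control 1 in N-short knockdown and 2 in N-long knockdown. At 50 reads, and with no replicate block, 0 were called in N-long knockdown and 0 in total knockdown against N-long knockdown. With limma 0 were called in N-long knockdown, in N-long knockdown against N-short knockdown and in total knockdown against N-long knockdown. The limma fit was not shown able to make such calls, so its 0 says nothing of these results. The cause of the other changes was not tested. With only junctions of at least 2 reads the unannotated share was 1.04% in A375 total RNA, 1.63% in HEK293 and 1.12% in wild-type HUES66.

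Depth limits the splice choices: a library had 31 to 246 reads into the 225-nt exon, and inclusion of the 40-nt exon rests on 19 reads in A375 nuclear RNA. Total knockdown and control share no 24 hr set.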

Other observations

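On the strand opposite to RBFOX2, 81 junctions lay inside the gene with 151 reads in all, 3 to 15 per library, and were kept out of all other values. Relative to reads into the last exon, reads into the 225-nt exon were 0.880 in the controls together and 0.749 in total knockdown, with overlapping intervals of 0.742 to 1.04 and 0.599 to 0.935.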
